A study of Mus musculus with 49 samples.

Results

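Mouse embryonic stem (mES) cells whose Trim24 carries a disabled RING domain were compared by RNA-seq with mES cells from which the whole Trim24 protein had been removed. The comparison used 8 of the 49 libraries of the series, chosen by their labels alone: the 4 ligase-null libraries (replicates 1 to 4) and the 4 Trim24-degraded libraries of the same experiment (replicates 4 to 7). All genes of the table entered, and 16674 of its 20489 genes were high enough to be tested. The question of the design is whether cells that keep Trim24 with its RING domain mutated have the transcriptome of cells that lose the protein.

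All 8 libraries came from 129S6/SvEvTac mES cells grown on gelatin in serum with LIF. Every culture received 1 µM doxorubicin for 4 h, a DNA-damaging agent that activates p53. The labels give degron-tagged Trim24 as the genotype of both groups, but the sources used here do not make clear whether the ligase-null line was made in the degron-tagged line or in another. In the degraded group the tagged protein was removed by 500 nM dTAG13 during the 4 h, and this compound acts on the protein and leaves the gene in place. In the ligase-null group the endogenous gene carried the substitutions C52A and C55A, introduced by CRISPR, and no dTAG13 was listed. A further group of 4 libraries (Trim24-expressing, replicates 4 to 7), with the tagged protein intact, doxorubicin and no dTAG13, gives the background for both. Mutation and compound change together between the ligase-null and degraded groups, and the line may differ as well, so their effects cannot be told apart. The number of clones behind the ligase-null libraries is not given in the sources used here, and p-values measure the spread between these libraries.

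Trim24 is a member of the TIF1 family of chromatin proteins. It reads histone H3 through a PHD finger and a bromodomain, and its N-terminal RING finger is of the kind that transfers ubiquitin. RING fingers are held together by zinc ions bound to cysteines and histidines, and replacing such cysteines with alanine is the usual way to disable the fold. p53 is a transcription factor that, once stabilised, raises genes of cell-cycle arrest, DNA repair and apoptosis, together with Mdm2, its own negative regulator. The stretch of the mouse Trim24 coding sequence that holds both mutated residues is shown to place the change. It covers residues 46 to 61 in exon 1 of 19, at chr6:37871246-37871293 on the plus strand of GRCm38, with the codons for cysteine 52 and cysteine 55 in capitals:
Trim24, residues 46 to 61: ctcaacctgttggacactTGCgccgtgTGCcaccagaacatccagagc

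The libraries held between 18345070 and 22360998 reads in the ligase-null group and between 24492233 and 33893100 in the degraded group, so the degraded libraries were all deeper. All 10 markers of embryonic stem cells lay above 1 CPM (reads of a gene scaled to the size of its library) in every library, with sums of 2730 to 3130 CPM in ligase-null cells and 2840 to 2975 CPM in degraded cells. In a principal component analysis of the 12 libraries the first component took 53.1% of the variance and set the ligase-null libraries (33.0 to 41.2) apart from both other groups (−22.9 to −13.5). The second component took 13.9% and set the degraded libraries (13.1 to 17.4) apart from the expressing ones (−26.4 to −11.3). On it ligase-null replicate 1 lay at 12.6, near the degraded libraries, and the other ligase-null libraries lay at −4.1 to −2.6. Ligase-null replicate 1 also differed from the other ligase-null libraries in the summed level of 1137 olfactory receptor genes, at 110.59 CPM against 188 to 266 CPM. The degraded libraries had 79.1 to 110 CPM of these receptors, which stem cells are not known to use, and the part of this difference in the calls of low genes was not tested beyond the values given beside them.

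Trim24 mRNA was a little lower in ligase-null cells. It was at 99.8, 95.5, 98.9 and 97.4 CPM in the 4 ligase-null libraries and at 130, 135, 125 and 133 CPM in the 4 degraded libraries. The groups did not overlap, and the expressing libraries lay at 121 to 129 CPM, near the degraded ones. The log2 fold change was −0.42 ± 0.05 (SE, n = 4 and 4, adjusted p = 8.33e-08, limma), short of the 0.75 required for a call. Because dTAG13 removes protein, the mRNA level does not check the degradation.

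At the core of the p53 response Trp53, Mdm2 and Cdkn1a differed by less than the size of a call. Trp53 itself, which encodes p53, had 148, 149, 156 and 134 CPM in ligase-null libraries and 181, 229, 178 and 172 CPM in degraded libraries. Every ligase-null library was below every degraded one, and the highest value came from degraded replicate 5. The difference was −0.36 ± 0.07 (SE, adjusted p = 0.000194), under the size required for a call. Mdm2, the ubiquitin ligase that limits p53, had 890, 849, 909 and 832 CPM against 916, 852, 889 and 925 CPM. Its groups overlapped, with a log2 fold change of −0.04 and a 95% interval of −0.14 to 0.06. Cdkn1a, which encodes the cell-cycle inhibitor p21, had 86.0, 69.5, 76.6 and 80.2 CPM against 72.1, 79.5, 78.3 and 69.9 CPM. These groups also overlapped (log2 fold change 0.06, interval −0.07 to 0.18), and both lay above the 44.5 to 50.3 CPM of the expressing libraries.

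Of the p53 genes grouped by role, none of 9 feedback regulators passed the test for a change and 1 of 12 arrest genes rose. In addition 1 of 19 apoptosis genes fell, as did 1 of 20 genes of DNA repair and metabolism. Over all genes 4.83% rose and 1.85% fell. The arrest gene was Gadd45g (1.65 to 2.14 CPM against 0.199 to 0.479, log2 fold change 1.83). The apoptosis gene was Pmaip1, which encodes the BH3-only protein Noxa, at 115, 116, 101 and 106 CPM against 183, 171, 200 and 197 CPM (−0.78 ± 0.06, adjusted p = 1.63e-12). The gene of the repair and metabolism list was Sesn1, a stress-induced sestrin. It was at 44.2, 42.3, 47.9 and 39.6 CPM against 79.4, 72.1, 82.1 and 73.1 CPM (−0.81 ± 0.06, adjusted p = 3.99e-12). For both Pmaip1 and Sesn1 the groups did not overlap. In expressing cells Pmaip1 lay at 171 to 196 CPM and Sesn1 at 62.4 to 68.7 CPM, also above ligase-null cells.

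The study's example genes that rise when Trim24 is degraded lay well above expressing cells in both groups. Ptgs2, the cyclooxygenase that makes prostaglandin precursors, had 28.1, 29.5, 28.5 and 29.4 CPM in ligase-null libraries and 33.8, 29.6, 32.7 and 30.5 CPM in degraded ones. Every ligase-null value lay just under the lowest degraded value, and both groups were far above the 2.08 to 3.36 CPM of expressing cells. The direct difference was −0.13 (interval −0.26 to 0.00, adjusted p = 0.104), while the difference from expressing cells was 3.33 for ligase-null and 3.46 for degraded cells. Rgcc, a regulator of the cell cycle, had 10.6, 9.81, 12.3 and 12.4 CPM against 15.3, 16.8, 17.5 and 16.9 CPM. Its ligase-null libraries were all lower (−0.55 ± 0.09, adjusted p = 3.75e-06, not called) and stood above the 0.702 to 1.77 CPM of expressing cells. Tnfaip3, the ubiquitin-editing inhibitor of NF-kB signalling, had 6.99, 6.39, 5.70 and 7.59 CPM against 5.58, 5.72, 6.50 and 5.31 CPM. These groups overlapped (0.19, interval −0.03 to 0.41), with 2.65 to 3.31 CPM in expressing cells.

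**Figure D1:**
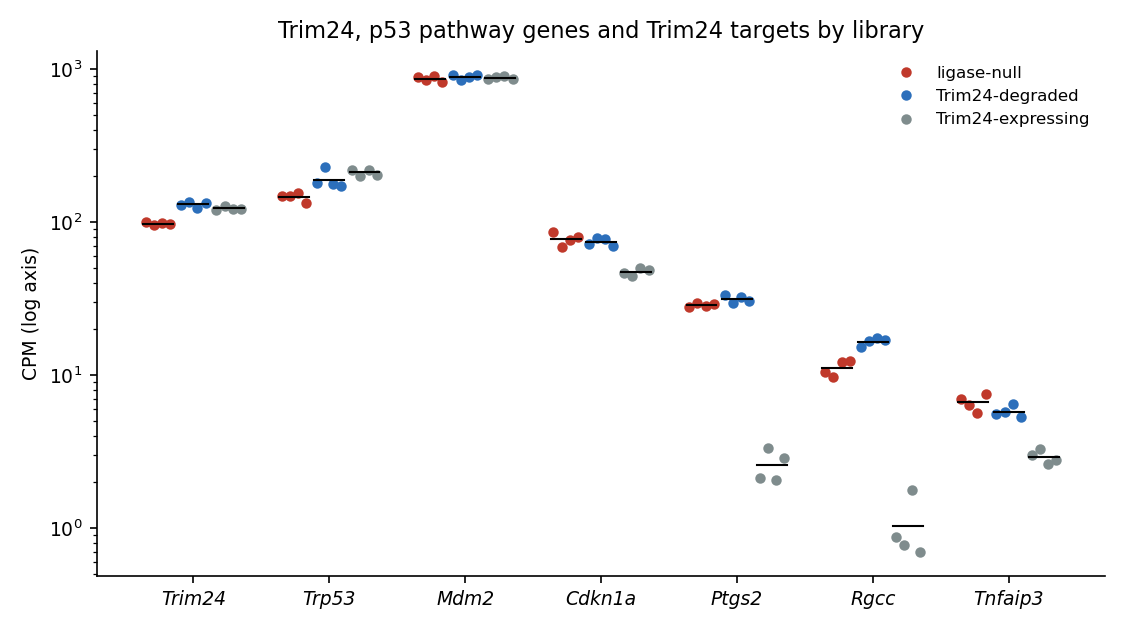
Level of 7 genes in each library (CPM, log axis) in ligase-null, Trim24-degraded and Trim24-expressing cells, with a bar at each group's mean (n = 4 per group). Ptgs2, Rgcc, Tnfaip3 and Cdkn1a were higher in both Trim24-altered groups than in expressing cells, and Mdm2 had means of 870 CPM in ligase-null and 895 CPM in degraded cells.

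The wider set of Trim24 targets was taken from the separate time course of the series, so that neither group compared here chose it. It holds the 162 genes that were higher in degraded than in expressing cells after 4 h of doxorubicin (replicates 1 to 3), which is 1.00% of the genes tested there. Between ligase-null and degraded cells 13 of the 162 were higher and 3 were lower, with a median log2 fold change of 0.03 beside −0.05 over all genes. Together 9.88% of the targets were called, against 6.68% of all genes. The spread of the targets was wider than that of genes at large, since 72.8% of them lay within 0.5 of 0 on the log2 scale against 83.0% of all genes. The 95% interval of the difference lay inside −0.75 to 0.75 for 113 of the 162 targets (69.8%, against 79.2% of all genes). In the same experiment 102 of the 162 were called higher in degraded than in expressing cells (1.01% of all genes), with a median of 1.02, and 113 were called higher in ligase-null than in expressing cells (4.67% of all genes), with a median of 1.05. These contrasts share libraries with the main one, so the values are only set side by side. By point value 153 of the 162 lay above expressing cells in both.

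The targets with the strongest response were on balance slightly lower in ligase-null cells. Of the 28 targets with a time course log2 fold change of at least 1.5, none was called higher and 2 were called lower, with a median of −0.12. In 11 of the 28 every ligase-null library was below every degraded one, and the reverse held for 2. Over all genes the groups did not overlap in 25.2% with ligase-null lower and in 15.3% with ligase-null higher. Against expressing cells the same 28 genes had a median of 2.03 in ligase-null and 2.08 in degraded cells.

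Cyp4f39, a cytochrome P450 that hydroxylates fatty acids, shows an intermediate level. It had 43.0, 43.6, 45.4 and 40.4 CPM in ligase-null libraries and 73.2, 71.8, 75.9 and 72.4 CPM in degraded ones. Its ligase-null libraries lay between the degraded ones and the expressing ones at 14.1 to 16.1 CPM (−0.76 ± 0.06, adjusted p = 1.64e-12). Fank1 was the target with the largest decrease, at 4.06, 3.01, 4.25 and 3.25 CPM against 7.18, 7.27, 8.94 and 7.66 CPM. Its groups did not overlap (−1.03 ± 0.12, adjusted p = 2.05e-08), and expressing cells had 1.8 to 2.6 CPM. The gap junction gene Gjb2 fell by 0.87 on the log2 scale. Adamts2, a procollagen-processing protease, lay at 22.8 to 25.4 CPM against 34.9 to 40.4 CPM, and Pnliprp2, a pancreatic-type lipase, at 5.45 to 6.52 against 8.52 to 9.93 CPM. Neither passed the test (−0.65 and −0.60), and in both the ligase-null libraries stood well above the expressing ones at 5.64 to 6.23 CPM and 0.243 to 0.702 CPM.

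Among the targets that were higher in ligase-null cells Fut9 had the largest difference. Fut9 makes the Lewis X sugar that marks embryonic stem cells as SSEA-1. It had 56.4, 53, 54.9 and 60.0 CPM against 16.4, 16.3, 17.9 and 19 CPM. The groups did not overlap (1.67 ± 0.07, adjusted p = 2.7e-19), and expressing cells had 11 to 13.6 CPM. The 8 largest increases also included the transporter gene Abca8b (1.31), Tmem45b (1.16), Nipal2 (1.00), the olfactory receptor Olfr1116 (0.97), Samd5 (0.85) and the extracellular matrix gene Fras1 (0.84). Not all of these rose on degradation in this experiment. In degraded against expressing cells Abca8b was at −0.06 and Nipal2 at −0.003. The others were at 1.30 (Tmem45b), 0.50 (Olfr1116), 0.98 (Samd5) and 1.09 (Fras1).

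**Figure D2:**
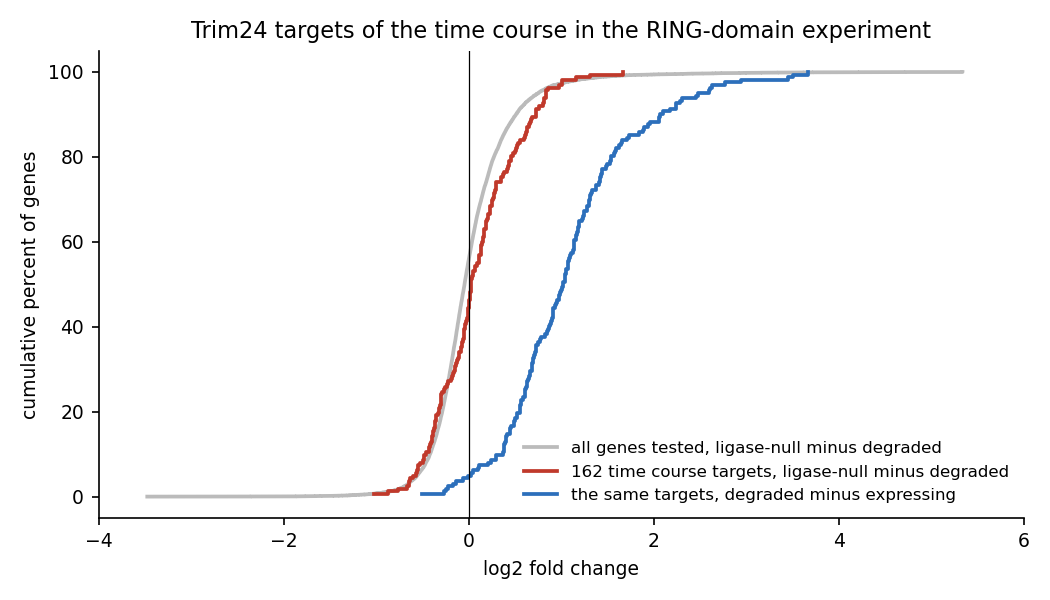
Cumulative percent of genes against log2 fold change for all 16674 genes tested and for the 162 time course targets in ligase-null minus degraded cells, and for the same targets in degraded minus expressing cells. The targets centre at 0.03 in the direct comparison and at 1.02 against expressing cells, where all lines are point estimates from 4 libraries per group.

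The genes that fall when Trim24 is degraded were few. In the time course 24 genes were lower in degraded than in expressing cells (0.149% of those tested, where 1.15% were called in either direction). Between ligase-null and degraded cells 4 of the 24 were higher and none was lower, with a median of 0.33. In the same experiment 5 of the 24 were called lower in degraded than in expressing cells (median −0.57), and in ligase-null against expressing cells 3 were lower and 1 higher (median −0.14). The 4 were Lefty1 (1.48), Mycn (1.06), Spry4 (1.03) and Gcm1 (0.80), of which Lefty1, Mycn and Gcm1 were named after their values were seen. Spry4 encodes an inhibitor of FGF signalling. It had 25.5, 21.5, 24.2 and 27.3 CPM in ligase-null libraries and 12.0, 13.8, 10.9 and 10.9 CPM in degraded ones. Ligase-null cells thus lay in the range around expressing cells, at 24.1 to 26.3 CPM, and above degraded cells (1.03 ± 0.09, adjusted p = 2.18e-11). Fgf4, the FGF ligand of pluripotent cells, had 134, 128, 135 and 122 CPM against 75.3, 75.9, 74.7 and 74.3 CPM. It also lay near expressing cells at 113 to 119 CPM, and the groups did not overlap (0.78 ± 0.05, adjusted p = 1.28e-13). Lefty2, a Nodal antagonist, rose past both other groups, at 209, 191, 197 and 181 CPM against 60.9, 59.2, 75.8 and 62.8 CPM in degraded and 99.0 to 106 CPM in expressing cells (1.59 ± 0.06, adjusted p = 7.97e-19).

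Beyond the Trim24 targets the ligase-null and degraded groups differed at many genes. Of 16674 genes tested 806 were higher in ligase-null cells (4.83%) and 308 were lower (1.85%), with an adjusted p below 0.01 and a change of 0.75 or more on the log2 scale. For scale, 165 genes were higher (1.01%) and 22 lower (0.135%) in degraded than in expressing cells, 1.15% in all. Ligase-null cells differed from expressing cells in 798 higher genes (4.67%) and 390 lower genes (2.28%), 6.95% in all. The differences were mostly moderate, with quartiles of 0.86, 1.05 and 1.41 for the genes that rose, and 97 of them passed 2 on the log2 scale against 10 of the genes that fell. Groups did not overlap for 743 of the 806 and for 307 of the 308, where 40.4% of all genes tested did not overlap.

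The genes called split by level. Of the 806 higher genes 404 had at least 1 CPM in degraded cells, and 372 of these were also called when ligase-null replicate 1, the library with the fewest olfactory receptor reads, stood alone for its group. The other 402 had under 1 CPM in degraded cells, and 118 of these were called in that way. Of the 308 lower genes 208 were. With replicate 1 alone 562 genes were higher and 296 lower in all.

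Most of these genes were also called against expressing cells. Of the 806 higher genes 805 were tested against expressing cells, where 527 were also called higher and none lower, with a median of 0.96. The same genes had a median of −0.12 in degraded against expressing cells, with 10 called in each direction. Of the 308 lower genes 217 were also called lower than in expressing cells and 2 higher, with a median of −0.91, beside 0.08 in degraded against expressing cells. These contrasts share the ligase-null or the degraded libraries. Across the 16 other libraries of the series with 4 h of activation, 394 of the 806 were lower in every library than in all 4 ligase-null ones. In the same way 172 of the 308 were higher in every library. These 16 include the 4 degraded libraries behind the calls, from which 743 of the 806 and 307 of the 308 already stood apart. The same count was not made over all genes, so it is only a description.

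**Figure D3:**
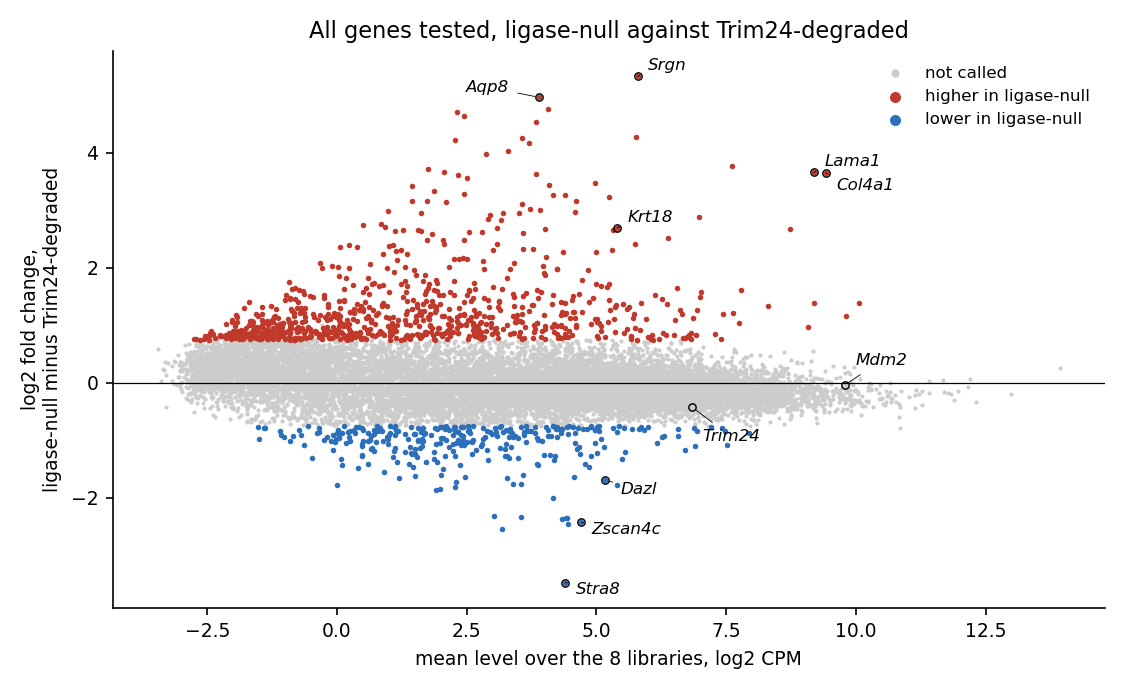
Log2 fold change, ligase-null minus Trim24-degraded, against the mean level over the 8 libraries (log2 CPM) for the 16674 genes tested. The 806 genes called higher and the 308 called lower are colored, and the highest points, such as Srgn and Aqp8, lie further from 0 than the lowest, Stra8.

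The largest increase was in Srgn, which encodes the proteoglycan serglycin. It had 108, 109, 108 and 109 CPM in ligase-null libraries and 2.65, 2.30, 2.30 and 2.14 CPM in degraded ones. The groups lay 46.3-fold apart in mean (5.34 ± 0.08 on the log2 scale, adjusted p = 3.04e-31), and no other library with 4 h of activation passed 26.4 CPM. Aqp8, a water channel, had 29.9, 29.4, 29.3 and 27.6 CPM against 0.383, 0.596, 0.657 and 0.728 CPM (4.97 ± 0.12, adjusted p = 2.7e-25). Ctsh, a lysosomal protease, had 112, 104, 96.5 and 103 CPM against 4.56, 4.37, 5.18 and 6.16 CPM, again without overlap (4.27 ± 0.08, adjusted p = 1.87e-27). The other 12 of the 15 largest increases ran from 3.67 to 4.76. They were the BMP-binding protein gene Bmper, the gastrokines Gkn2 and Gkn1, the prostaglandin transporter Slco2a1, Glipr1, the glucuronosyltransferase Ugt2b34, the VEGF receptor Flt1, the hexokinase-related Hkdc1, the FGF19-type coreceptor Klb, the basement membrane genes Col4a2 and Lama1, and the calcium-binding S100g.

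Primitive endoderm genes rose together. Primitive endoderm is the extraembryonic layer that faces the blastocyst cavity, and the cells it gives rise to lay down basement membrane rich in laminin and type IV collagen. Of 20 listed genes tested 18 were higher and none was lower in ligase-null cells, with a median of 1.92 beside −0.05 over all genes. Between degraded and expressing cells 1 of 19 was called, with a median of 0.02. In bulk RNA more cells of a type and more RNA per cell cannot be told apart.

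The matrix genes of this group were abundant. Col4a1, a type IV collagen chain, had 1376, 1251, 1281 and 1170 CPM in ligase-null libraries and 94.8, 104, 103 and 100.3 CPM in degraded ones. The groups were 12.6-fold apart in mean (3.65 ± 0.05, adjusted p = 3.04e-31). Its neighbor Col4a2 had 401, 339, 366 and 349 CPM against 24.9, 25.1, 28.3 and 26.8 CPM, also without overlap (3.77 ± 0.06, adjusted p = 1.43e-30). The laminin gene Lama1 had 1142, 1063, 1103 and 1020 CPM against 82.9, 90.7, 86.5 and 79.6 CPM (3.67 ± 0.05, adjusted p = 3.04e-31). Lamb1 (2.68), Lamc1 (1.39) and Sparc (1.16) also rose. The transcription factors and the other markers of the layer were lower in level and moved the same way. Dab2, an endocytic adaptor, had 21.5, 19.8, 19.9 and 20.1 CPM against 2.04, 2.58, 2.34 and 2.27 CPM (2.96 ± 0.10, adjusted p = 1.39e-21). Gata4 rose by 2.86, Foxa2 by 2.76, Gata6 by 2.62, Sox17 by 2.48, Sox7 by 2.04 and Hnf4a by 1.04, where the least abundant of them, Sox7, reached only 1.08 to 2.08 CPM. Nid1 (0.15) and Afp (0.00) did not pass. Apart from Col4a1, Col4a2, Lama1 and Dab2, the members were named after their values were seen.

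A pair of members also differed between degraded and expressing cells. Cubn, an endocytic receptor of the visceral endoderm, lay at 136 to 149 CPM in ligase-null, 42.9 to 47.5 CPM in degraded and 9.66 to 12.7 CPM in expressing cells, with a log2 fold change of 1.66 in the main comparison and 1.91 from expressing to degraded. Pdgfra, the receptor that marks the layer, lay at 39.1 to 44.9, 10.5 to 12.2 and 6.08 to 8.37 CPM, with 1.79 in the main comparison and 0.66, under the size of a call, from expressing to degraded.

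The summed level of the list placed the ligase-null libraries above every other group examined. The sum was 6375 to 7185 CPM in ligase-null, 1692 to 1798 in degraded and 1665 to 1745 in expressing cells. It was 2905 to 3108 CPM in the degraded libraries of the time course, which carry the same labels of genotype and treatment, and 1965 to 2039 in activated wild type cells. The same genotype and treatment thus gave sums of the whole list that differed between experiments, by less than the ligase-null libraries differed from either. The 6 defining markers alone summed to 89.3 to 96.8 CPM in ligase-null, 17.1 to 18.9 in degraded and 42.3 to 43.6 in the degraded libraries of the time course. In the time course before activation (0 h) they summed to 59.7 to 63.2 CPM. On a fold scale the degraded libraries of the experiments differed at these markers about as much as ligase-null libraries did from those of the time course. All 6 were above 1 CPM in every ligase-null library, and none was at 0 in degraded cells. The markers of other cell types were mixed. The 5 defining markers of trophoblast summed to 2.22 to 3.64 CPM against 2.03 to 3.38. The wider trophoblast list, which holds the keratins Krt8 and Krt18, summed to 343 to 401 CPM against 138 to 145 CPM, with 6 of 14 genes higher, none lower and a median of 0.53. Their part in the other results was not tested.

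The defining markers of fibroblasts summed to 17.9 to 21.3 CPM in ligase-null against 31.5 to 33.7 CPM in degraded cells, and those of neural cells to 74.0 to 90.5 against 163 to 180 CPM. A single member, Thy1 (−1.60) or Tubb3 (−1.10), was called lower in each of these sets. In the wider fibroblast or feeder list 2 of 17 genes were higher and 1 lower, with a median of 0.22, and in the neuroectoderm list 3 of 14 were higher and 1 lower, with a median of 0.30.

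Short windows of promoters with a GATA motif are shown because Gata4 and Gata6 were among the genes that rose. The 300 bases from 250 before to 50 after the annotated start of each gene (RefSeq, GRCm38.p6) were searched on both strands for AGATAA and TGATAA. Of the 31 genes among the 15 largest increases and the primitive endoderm genes that rose, 21 had a promoter sequence to search, with or without the motif. Windows are shown for 6 of them, and every window shown lies before the start. The 6 are therefore not a count of genes with a match in the 300 bases, and are not comparable with the shares given below. The matches are in capitals, as read along the strand of the gene, where TTATCA is TGATAA read on the opposite strand:
Dab2, chr15:6299598-6299627, plus strand: tgatttttcttcTGATAAcaggaataggag
Foxa2, chr2:148045630-148045659, minus strand: ctgttagccttgAGATAAtattaactttgt
Gkn1, chr6:87351118-87351147, minus strand: atattccagaacTTATCAcaaaccgtgtag
Gkn1, chr6:87350980-87351009, minus strand: ggagagggaagcAGATAAgccgtggactcc
Gkn2, chr6:87373135-87373164, plus strand: tgcaaacctgagAGATAAacggagtgtttg
Gkn2, chr6:87373230-87373259, plus strand: gggtctcagtccTGATAAgggagtttgcta
Hnf4a, chr2:163506793-163506822, plus strand: gaagaatcaataAGATAAccgggcggggtg
Klb, chr5:65348370-65348399, plus strand: ttactggagcgcTGATAAagacagtccagc

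A match in such a window is a description of the letters and not a binding site. The motif stood in 13.7% of the 13142 tested genes with a promoter, in 18.8% of the 581 higher genes and in 9.83% of the 234 lower genes. Among higher genes with at least 1 CPM in degraded cells the share was 13.2% of 295, that of genes at large. The median observed-to-expected ratio of CpG dinucleotides was 0.706 for all genes tested, 0.470 for higher genes, 0.544 for lower genes and 0.612 for higher genes with at least 1 CPM in degraded cells.

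Epithelial keratins and junction genes rose as well. Of 24 genes of the epithelial and mesenchymal list 10 were higher and 1, Tgfbi (named after its values were seen), was lower, with a median of 0.50. Krt18, which pairs with Krt8 in simple epithelia, had the largest difference of the list. Krt18 had 81.1, 69.4, 68.8 and 75.9 CPM against 11.4, 10.2, 10.5 and 12.1 CPM (2.70 ± 0.07, adjusted p = 2.21e-24). Krt8 had 102, 85.5, 85.8 and 90.5 CPM against 17.5, 17.2, 16.8 and 15.3 CPM (2.42 ± 0.07, adjusted p = 6.61e-24). In both genes the groups did not overlap. The splicing regulator Esrp1 (2.61), which lay between these keratins, and the claudin gene Cldn7 (2.01) also rose. Of 14 trophoblast genes 6 rose, of which Krt8 and Krt18 are shared with the epithelial list.

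Some genes of developmental signalling were higher in ligase-null than in degraded cells, while most members of each list did not pass the test. Of 22 genes of BMP and Nodal signalling 7 rose and none fell (median 0.38). They included the BMP and activin antagonists Nog (2.24) and Fst (2.04), the ligand Bmp2 (2.01) and Lefty2. Nog was low, at 2.98, 2.49, 4.55 and 3.16 CPM against 0.351, 0.278, 0.365 and 0.642 CPM. Of 19 FGF and ERK feedback genes 5 rose and none fell (median 0.37), and these were Dusp4 (1.49), Fgfr3 (1.19), Spry2 (1.18), Spry4 and Fgf4. Of 23 immediate early genes 5 rose and none fell (median 0.39). Ccn2, a matricellular growth factor, had the largest difference of these, at 26.4, 26.3, 29.7 and 25.6 CPM against 2.65, 3.22, 2.77 and 3.51 CPM (3.01 ± 0.10, adjusted p = 4.6e-22). Of 24 pluripotency genes 3 were higher (Dppa3, Nr0b1 and Fgf4) and none was lower (median 0.29). Of 16 formative genes 4 rose and the methyltransferase gene Dnmt3a fell by 0.93. The fall of Dnmt3a was uneven, since ligase-null replicate 1 stood apart at 63.8 CPM, above the other ligase-null libraries. Expressing cells lay between the other groups in the list medians. In ligase-null against expressing cells these were 0.14 (BMP and Nodal), 0.09 (FGF and ERK feedback), 0.10 (immediate early) and 0.01 (pluripotency). In degraded against expressing cells they were −0.08, −0.22, −0.24 and −0.23 in the same order.

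**Figure D4:**
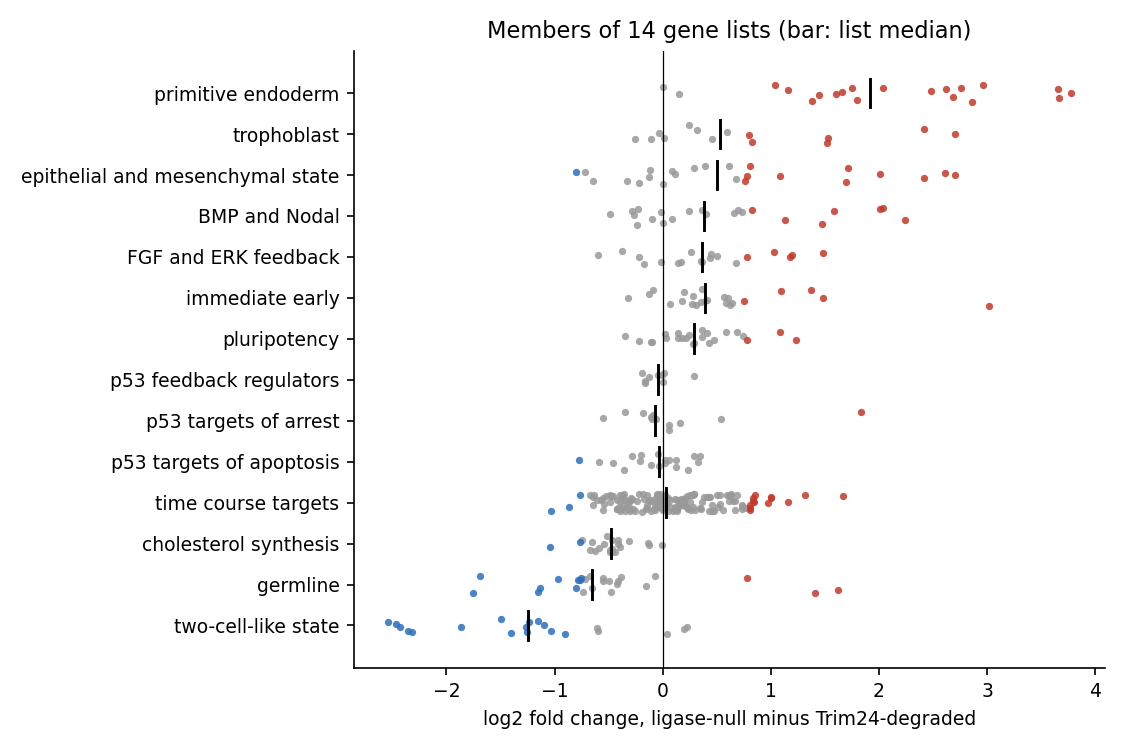
Log2 fold change, ligase-null minus Trim24-degraded, of each tested member of 14 gene lists, with members called higher in red, called lower in blue and others in grey, and a bar at each list's median. The medians run from 1.92 for primitive endoderm to −1.25 for the 2-cell-like state, with the time course targets at 0.03.

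The genes that fell included those of the 2-cell-like state and of the germline. A small share of mES cells passes at any time through a state that resembles the embryo at the 2-cell stage, marked by Dux and the Zscan4 cluster. Of 20 genes of this state 15 were lower and none was higher in ligase-null cells, with a median of −1.25. None of the 20 was called between degraded and expressing cells (median 0.09). Zscan4c had 7.64, 9.76, 7.70 and 6.98 CPM against 46.5, 44.4, 42.9 and 43.9 CPM. Its groups did not overlap (−2.43 ± 0.08, adjusted p = 2.88e-21). Zscan4b (−2.54), Zscan4d (−2.46), Zscan4f (−2.36) and Duxf3 (−1.15, named after its values were seen) fell with it. The Zscan4 and Usp17l copies are nearly identical and multi-mapping reads were placed at random among matches, so single copies are uncertain. The list summed to 321 to 359 CPM in ligase-null, 469 to 500 in degraded and 450 to 501 in expressing cells, and to 366 to 403 CPM in the degraded libraries of the time course.

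Stra8, the gatekeeper of meiotic entry, had the largest decrease of all. It had 3.26, 3.38, 3.20 and 2.88 CPM against 36.5, 36.2, 40.4 and 42.8 CPM. The ligase-null libraries were 12.3-fold lower in mean (−3.47 ± 0.09, adjusted p = 8.24e-25). The other activated libraries ranged from 5.62 to 42.8 CPM, so Stra8 also varied between the other groups. Of 25 germline genes 9 were lower and 3 were higher (median −0.65). Dazl, an RNA-binding protein of germ cells, had 17.0, 17.3, 16.4 and 16.7 CPM against 54.5, 55.6, 54.7 and 55.8 CPM, with a clear gap (−1.69 ± 0.06, adjusted p = 2.02e-20). Tex11, a meiotic recombination gene, had 4.71, 4.05, 4.45 and 5.14 CPM against 15.9, 16.3, 16.3 and 16.9 CPM (−1.76 ± 0.09, adjusted p = 2.91e-16). The 3 that rose were the reproductive homeobox genes Rhox6 (1.62), Rhox5 (1.41) and Rhox9 (0.78, named after its values were seen). The germline list summed to 454 to 521 CPM in ligase-null and 714 to 741 CPM in degraded cells. Crabp1 (−2.01), which binds retinoic acid, Tmem92 (−1.86), the nucleosome-binding Hmgn3 (−1.85), Gstt1 (−1.81) and the meiotic Meioc (−1.79) were also among the 15 largest decreases.

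**Figure D5:**
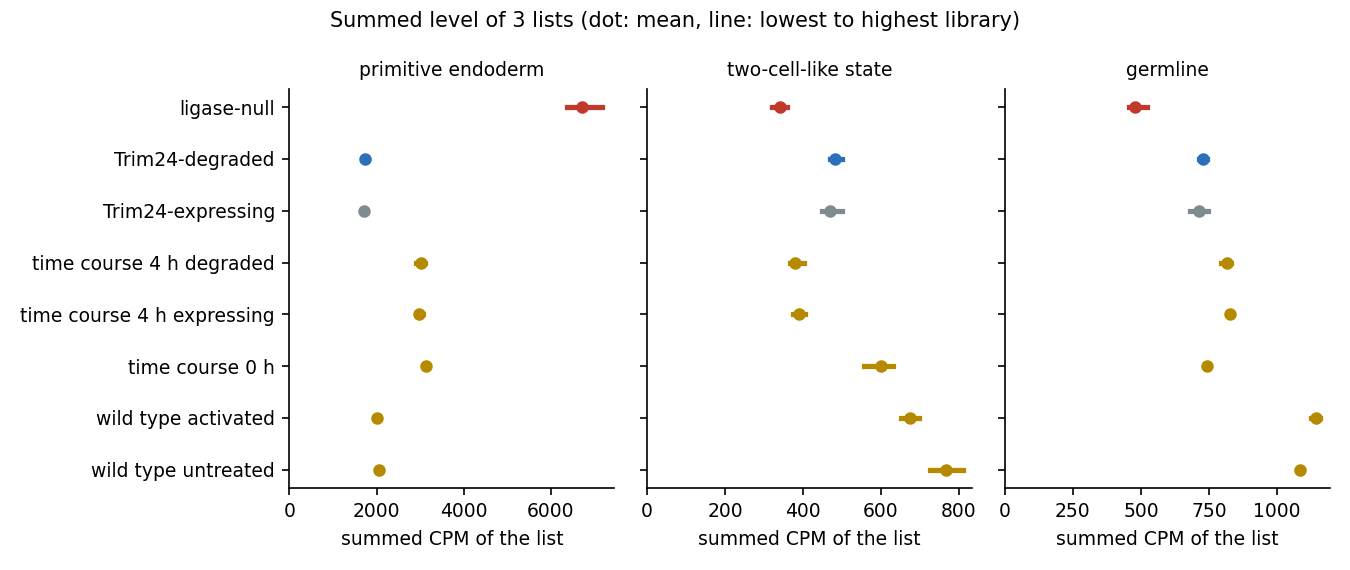
Summed level (CPM) of the primitive endoderm, 2-cell-like and germline lists in 8 groups of libraries, with a dot at the mean and a line from the lowest to the highest library (2 to 4 libraries per group). Ligase-null libraries had the highest primitive endoderm sums, at 6375 to 7185 CPM, and the lowest sums of the other lists, at 321 to 359 and 454 to 521 CPM.

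Other lists close to Trim24 or to Ptgs2 differed in their share of genes called. None of 13 genes of the TIF1 family and its partners was called, with Trim66 (−0.52) furthest from 0. Of 21 NF-kB genes Nfkbiz alone rose (0.93), a share near the 4.83% of all genes that rose. Of 17 prostanoid genes the receptor Ptger4 rose (0.96) while the synthases Ptges (−1.05) and Ptgds (−0.82) fell. Over all genes 1.85% fell, a smaller share than 2 of 17. Ptges, which acts downstream of Ptgs2, had 15.4, 15.6, 15.8 and 14.8 CPM against 32.6, 34.8, 31.2 and 30.8 CPM, and 41.6 to 48.6 CPM in expressing cells. Its level was thus lowest in ligase-null cells, without overlap (−1.05 ± 0.07, adjusted p = 8.85e-14).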

How the data were processed

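RNA was prepared with a stranded total RNA kit. Per the labels and methods, the authors aligned reads to mm10 with STAR, placed each multi-mapping read at random among at most 20 matches, counted protein-coding genes with featureCounts, and normalized with edgeR (TMM). The deposited values are log2 CPM with a prior count of 8, and libraries are described there as biological replicates. From these values whole reads were recovered for 100% of values (within 0.01 of a whole number) in all 49 libraries, which gave read totals and CPM without the prior count. Fold changes are differences of the deposited log2 values, so those of low genes are understated.

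A gene was tested when at least 4 libraries lay 0.5 above the table's floor of −1.48. The test was limma 3.58.1 (R 4.3.3; trend and robust options) on the 8 libraries, with Benjamini-Hochberg adjustment over all genes tested. A call required an adjusted p below 0.01 together with a change of 0.75 or more on the log2 scale. The method was tested on simulated data. Lists are described by counts and medians, with no test over a list.

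Genes named are 7 genes of the study, the 15 largest increases and decreases whose groups do not overlap, up to 4 called members of each list (or the member furthest from 0), and the 8 targets with the largest increase and decrease. A single gene that the rule names is not reported here. Members and lists were chosen with earlier results of these data known. Positions came from GENCODE M21 (GRCm38) and RefSeq, and 40 of 20489 genes were not placed. Promoters came from RefSeq (GRCm38.p6) and matched 16188 genes. Alternatives were a count-based model (limma-voom on recovered reads), quantile and median scaling, a prior count of 2, no filter and a stricter one. Further alternatives were no trend or robust option, looser thresholds, all groups in the fit, and leaving out each library.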

Additional observations from a re-analysis of the deposited data

Results flagged for a closer look

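Among the genes named by rule, 1 library stood apart from the other 3 of its group in 10 of 256 groups of 4 libraries that reached 1 CPM (gap to the nearest value over the range above Dixon's 95% critical value), where chance gives about 1 in 20. In ligase-null replicate 1 these were Dhx32 (86.0 CPM), Dnmt3a (63.8 CPM), Kif20a (243 CPM) and Mdm4 (429 CPM), each above the other ligase-null libraries. Atf3 stood apart in ligase-null replicate 2 (22 CPM) and Gkn2 in ligase-null replicate 3 (8.95 CPM). In the degraded group Cdx1 (1.75 CPM) and Tubb3 (176 CPM) stood apart in replicate 4, Trp53 in replicate 5 (229 CPM) and Grhl2 in replicate 7 (6.98 CPM).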

How the results depend on the processing

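At adjusted p below 0.05 with no minimum fold change 3004 genes were higher and 5055 lower, which turns the split to 37.3% higher from 72.4%, and 39 of the 162 targets were higher and 35 lower. Quantile normalization gave 623 higher and 397 lower (61.1% higher). Limma-voom on recovered reads gave 946 higher genes, and 41 genes lower in degraded than in expressing cells in place of 22. Leaving out each library in turn gave 750 to 1095 higher and 303 to 369 lower genes, and 18 to 39 genes lower on degradation in the time course in place of 24, with the highest count without Trim24-expressing replicate 3. The target median was −0.12 for targets of at least 1.5. The median of chromosome 9 was −0.0746 without the filter and −0.20 with the stricter one.

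An alternative added after seeing the data left out the 3 ligase-null libraries with over 150 CPM of olfactory receptor reads, so that the lone library is assumed to vary like the degraded ones. It gave 562 higher and 296 lower genes, 16 primitive endoderm genes higher, 9 epithelial genes higher, 14 genes of the 2-cell-like state and 7 germline genes lower, and 3 olfactory receptors higher in place of 17. Of the 125 named genes that were called 32 lost the call under at least 1 alternative, and none of the 148 named genes reversed. The causes were not tested.

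No paired analysis was possible because the ligase-null (1 to 4) and degraded (4 to 7) groups share only the number 4. For degraded against expressing cells a replicate block gave 165 higher and 23 lower genes, and in the time course 166 and 36. Same-numbered libraries correlated in their deviations from group means at −0.00210 to 0.198 and 0.0123 to 0.101. The best match of a degraded library was the expressing library of its own number for every replicate except 5. The correlations were low and the numbers were not taken as pairs, which these values do not settle.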

Other observations

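Other lists are given by their counts, beside 4.83% higher and 1.85% lower over all genes. Of 25 hypoxia genes 3 were higher, the collagen prolyl hydroxylases P4ha2 (1.39) and P4ha1 (1.27) and Ndrg1 (1.15), and Adm was lower (−0.84). P4ha2 had 95.5, 79.2, 83.2 and 79.7 CPM against 34.4, 32.0, 33.3 and 28.4 CPM, without overlap. Of 34 imprinted genes 4 were higher and none was lower, among them Peg3 (1.20), Sgce (1.08) and Peg10 (0.83). B2m, the invariant chain of class I antigen presentation, rose by 1.51, the only one of 15 antigen presentation genes to be called. Of 22 genes of cholesterol synthesis Dhcr7 (−1.04) and Mvd (−0.77) were lower, with a list median of −0.48. This list had a median of 0.35 in degraded against expressing cells and −0.19 in ligase-null against expressing cells, with no calls in either. The 23 genes of the G1/S phase and the 28 of the G2/M phase had no calls and medians of −0.31 and −0.21, and the 50 proteasome subunits had none and a median of −0.34, beside −0.05 over all genes. Of 1137 olfactory receptors 158 were tested, of which 17 were higher and none was lower. A receptor could pass the filter through the ligase-null libraries alone, where the summed level was higher, so the direction of this count carries no weight.

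By chromosome the median log2 fold change lay between −0.12 and 0.05 except on chromosome 9, where it was −0.15 over 939 genes. Against the mean of the degraded libraries the 4 ligase-null libraries each had a chromosome 9 median of −0.18 to −0.12, while their medians over all genes were −0.08 to −0.02. Of the 16 other tested genes within 1 Mb of the Trim24 gene, Creb3l2 (1.45) and Atp6v0a4 (1.33) were higher and Clec2l (−1.19) was lower, all 3 named after their values were seen.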
